A study of Peromyscus leucopus and Peromyscus maniculatus with 24 samples.

Results

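The comparison is the one between species at old age: brains of 6 old white-footed mice, Peromyscus leucopus of the LL stock, were set against brains of 6 old deer mice, Peromyscus maniculatus bairdii of the BW stock. Both stocks are outbred captive colonies kept at one stock centre, the animals carried no engineered allele and received no agent, and brain RNA was sequenced from each animal. All 6 old LL animals were 28 months of age, while the old BW animals were 25, 26, 28, 28, 29 and 29 months of age, and the 6 young animals of each species, used below only as a reference, were 7 months of age. Each species stood for itself through 1 colony, and sex was not given in the sources used here. A gene entered the comparison when its symbol, ignoring case, occurred exactly once in the gene table of each species, which left 13565 genes of 25252 in the LL table and 16899 named genes in the BW table. Counts were divided by the gene length of the species' own table and scaled to a total of 1000000 over the shared genes, and this value is called the level below.

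The brain is a mixture of neurons, astrocytes that take up transmitter and supply neurons, oligodendrocytes that wrap axons in myelin, microglia that act as resident immune cells, and the cells lining the ventricles and vessels. Ependymal cells carry motile cilia on the ventricle walls, and the choroid plexus secretes cerebrospinal fluid and the thyroxine carrier transthyretin. In bulk RNA the level of a marker gene falls both when its cells are fewer and when each cell holds less of the RNA, and these cannot be told apart here.

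The libraries differed between the species in ways that touch every result. Counts on named genes ranged from 10241267 to 19461818 in old LL and from 5766964 to 8804417 in old BW. Old BW replicates 3 and 4, both 29 months of age, were close to identical, with a chi-square of 1.42 per gene against 8.83 or more in every other pair within an old group. They were kept as 2 animals, and with their counts summed into 1 the numbers of genes called were 3919 (34.0%) higher in LL and 1750 (15.2%) higher in BW of 11514 tested. Gene models in the LL table were longer for 97.7% of the shared genes, with a median length of 2692 bases against 1398 bases. Of the shared genes, 92.8% had a BW length that was a multiple of 3, against 35% for LL, so most BW lengths were coding lengths without untranslated regions. Genome, annotation and species therefore changed together, and their parts in a difference between tables cannot be told apart.

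Division by length removed the signed relation of the species difference to the length ratio of the 2 models. The Pearson correlation across genes was −0.02, against 0.53 without the division. Large differences in either direction still went with the ratio. The share shown to exceed 2-fold was 5.29% at LL over BW ratios of 1.5 to 2, and 7.45% at 2 to 3. It was 10.95% at 3 to 4 and 17.2% above 4. In the 1654 genes whose shorter model was at least 0.8 times the longer it was 6.95%. The cause of this rise was not tested. Division by length also left a relation to gene length itself. The median log2 difference, LL minus BW, ran from −0.73 in genes up to 500 bases to 1.06 in genes over 10000 bases, and from −0.38 to 0.94 over the same range in genes whose shorter model was at least 0.8 times the longer. The shortest class of the latter held 10 genes, and the next, of 99 genes, stood at −0.04. All 6 old LL libraries deviated upward with gene length and all 6 old BW libraries downward. Young brains showed a shallower slope in the same direction, from −0.44 to 0.56. Because the slope favours long genes in LL and short genes in BW, the counts of the pathway lists and of the marker lists with a called gene are also given after each library's smooth trend on gene length was removed, a step chosen after the data had been seen, and most pathway lists also under another scaling.

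**Figure D1:**
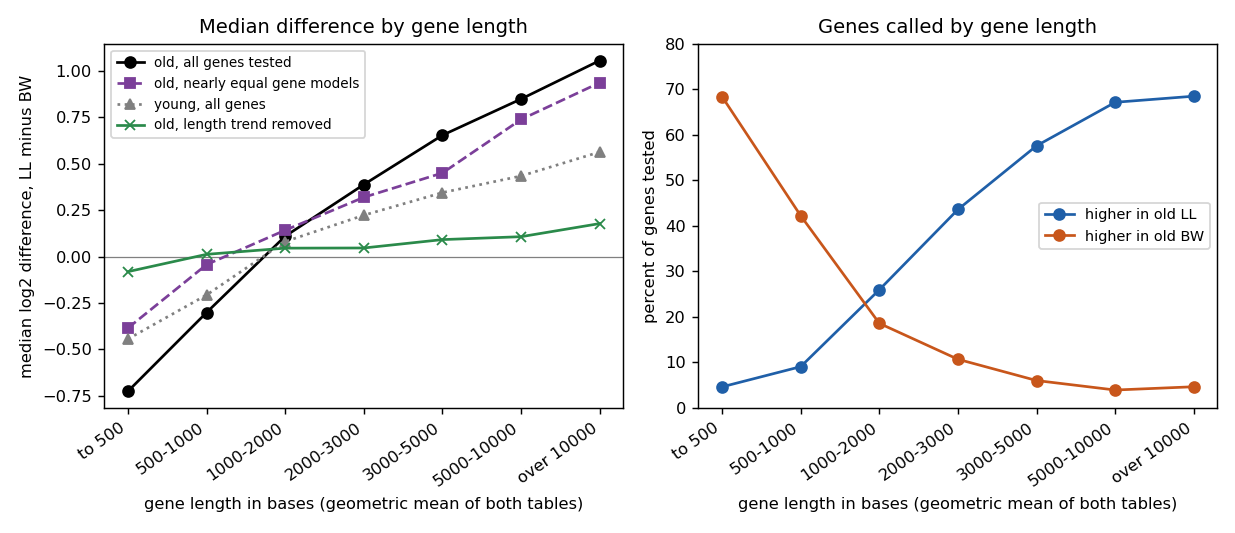
The left panel plots the median log2 difference between LL and BW against gene length in 7 classes, for old brains, for old brains with similar gene lengths in both tables, for young brains, and for old brains after removal of the length trend; the right panel plots the percent of genes called higher in each species. Old brains ran from −0.73 in the shortest class to 1.06 in the longest, and the share called higher in LL rose from 4.61% to 68.5% while the share called higher in BW went from 68.4% to 4.63%.

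Of 11273 genes tested, 6088 (54.0%) differed between old LL and old BW at an adjusted p below 0.05 in edgeR's quasi-likelihood test. A total of 4267 (37.9%) were higher in LL and 1821 (16.2%) were higher in BW. The median over all genes tested was 0.29 on the log2 scale in favour of LL, and it was 0.06 under trimmed-mean (TMM) scaling, which called 3022 genes (26.8%) higher in LL and 2690 (23.9%) higher in BW. After removal of the length trend, 2692 genes (23.9%) were higher in LL and 2354 (20.9%) in BW. A difference shown to exceed 2-fold was found for 851 genes (7.55%), of which 531 (4.71%) were higher in LL and 320 (2.84%) in BW. With the length trend removed the balance turned, to 247 (2.19%) in LL and 343 (3.04%) in BW. It also turned among the 1654 tested genes of nearly equal length in both tables, with 49 in LL and 62 in BW. The plain calls among those genes did not turn, with 726 higher in LL and 172 in BW. The values of the 2 groups did not overlap for 3433 genes (30.5%). With this many genes called, the share of a list that was called is read below against these percentages, and young brains, where 3147 genes (28.0%) were higher in LL and 1731 (15.4%) in BW, are given beside it. Counts with the length trend removed or under TMM scaling are to be read against the shares of those fits, given above.

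Markers of the cells that line the ventricles differed between the old groups. All 5 tested ependymal markers were higher in BW, against 16.2% of all genes, with a median log2 difference of −2.07. DYNLRB2, a dynein light chain of cilia, lay between 0 and 6.28 with a median of 2.92 in old LL and between 30.4 and 57.7 with a median of 41.0 in old BW. The groups did not overlap, and the log2 difference was −3.80 ± 0.49 (SE; adjusted p = 4.41e-05). RSPH1, a radial spoke protein of cilia, ranged from 2.59 to 12.8 (median 5.55) in LL and from 17.9 to 29.7 (median 25.0) in BW, again without overlap (−1.90 ± 0.36 SE, adjusted p = 0.000793). PIFO and CCDC153, 2 further genes of ciliated cells, differed by −2.65 and −2.07, and FOXJ1, the transcription factor of motile cilia, by −1.66. The count was 5 after removal of the length trend, and 5 when any library was left out. The summed level of the 6 listed ependymal genes was 3.60 to 40.6 in old LL and 76.7 to 110 in old BW.

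Choroid plexus markers followed the same direction with wider spread. Of 6 tested, 3 were higher in BW and 0 in LL (edgeR), and the median log2 difference was −1.65. TTR, which encodes transthyretin, ranged from 12.3 to 588 with a median of 51.4 in old LL and from 1668 to 12500 with a median of 6948 in old BW. The lowest BW animal exceeded the highest LL animal, and the log2 difference was −5.46 ± 0.98 (SE, adjusted p = 0.000532). CLIC6, a chloride channel protein, was also higher in BW without overlap (−2.60 ± 0.44 SE, adjusted p = 0.000342), and KCNJ13, a potassium channel of this epithelium, was higher with overlap (−1.99 ± 0.49 SE, adjusted p = 0.00409). Removal of the length trend or TMM scaling gave 4 of 6, and leaving out old BW replicate 6, the animal with the lowest TTR, gave 5. The remaining markers, KL, AQP1 and OTX2, had log2 differences of −1.30, −0.84 and −0.67 and did not pass.

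Neither group of markers set the species apart in young brains, where 0 of 5 ependymal and 1 of 6 choroid plexus genes were called, the latter KL, which encodes klotho, higher in LL (3.03, adjusted p = 0.0284). TTR differed by 0.78 between the young groups (adjusted p = 0.66) and DYNLRB2 by −0.10 (adjusted p = 0.935). The test of the difference between ages, the species by age interaction, gave −6.24 ± 1.78 (SE) for TTR and −3.70 ± 1.05 for DYNLRB2, with unadjusted p of 0.00194 and 0.00175 and an adjusted p of 0.227 for each. Young LL and young BW animals varied widely in summed choroid plexus level, from 55.8 to 39335 and from 270.4 to 16526. How much of the ventricle lining entered each sample was not recorded in the labels, and its part in these differences was not tested.

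**Figure D2:**
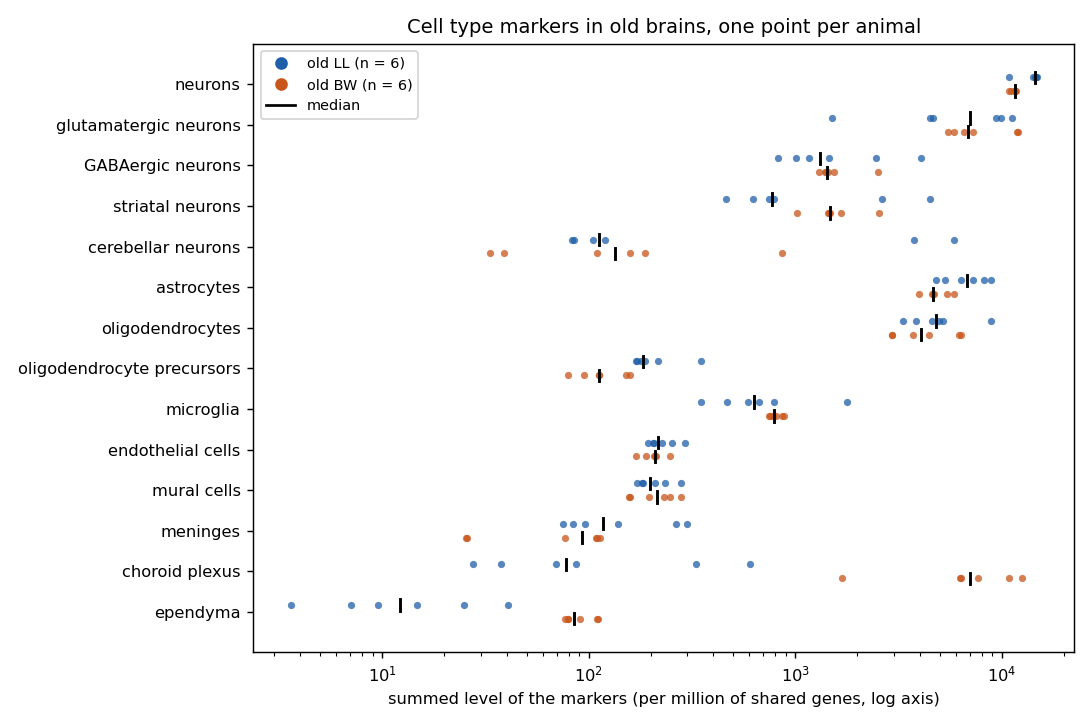
Each point is the summed level of a cell type's marker genes in 1 animal, per 1000000 over shared genes on a log axis, for old LL and old BW with 6 animals each, and black bars are medians. Ependymal and choroid plexus sums did not overlap between the groups, at 3.60 to 40.6 against 76.7 to 110 and at 27.4 to 601 against 1677 to 12551, while LL replicates 4 and 6 stood apart in cerebellar markers.

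Oligodendrocytes showed little difference between old brains apart from MAG, which encodes a myelin glycoprotein on the side of the sheath that faces the axon. MAG ranged from 6.98 to 20.9 (median 9.64) in old LL and from 146 to 334 (median 218) in old BW, without overlap, and differed by −4.25 ± 0.31 (SE, adjusted p = 3.77e-07). Of 11 tested markers, MAG was the one higher in BW, and MYRF, a transcription factor of myelin genes, was the one higher in LL (0.58 ± 0.23 SE, adjusted p = 0.048). Under TMM scaling 2 were higher in BW and 0 in LL. The MYRF call was lost after removal of the length trend (0.01, adjusted p = 0.979) and in 7 of the 12 fits with a library left out. MBP, a main protein of myelin, ranged from 1519 to 4482 (median 2253) in old LL and from 1256 to 3037 (median 1916) in old BW, with overlapping groups and a log2 difference of 0.28 ± 0.28 (SE, adjusted p = 0.415).

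In young brains 10 of 11 oligodendrocyte markers were higher in LL, and MAG was higher in BW. The summed level was 6681 to 22220 in young LL and 2173 to 8116 in young BW, against 3333 to 8881 in old LL and 2929 to 6362 in old BW. In young LL replicates 1 to 4 it was 17323 to 22220, and their summed glutamatergic markers were 588 to 1500. In young LL replicates 5 and 6 the oligodendrocyte sums were 8048 and 6681, and the glutamatergic sums 10628 and 6232. Glutamatergic sums in young BW were 1499 to 12857. The part of regional content in the young difference and in the interactions was not tested. MBP differed by 1.72 in young brains, and the interaction for MBP was −1.44 ± 0.51 (SE). All 11 markers had a negative interaction, from −1.65 to −1.14, with an unadjusted p below 0.05, against 15.8% of 11659 genes, and none passed the adjusted threshold (the lowest adjusted p was 0.227). MAG stood apart from the other members in its level of difference at both ages, −4.25 in old and −2.60 in young brains, but not in its interaction, −1.65. Whether reads were assigned to MAG alike in both species was not tested.

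Precursors of oligodendrocytes were higher in old LL for 4 of 6 markers (66.7%), against 37.9% of all genes, and in BW for none. OLIG1, a lineage transcription factor, ranged from 98.7 to 240 (median 119) in LL and from 47.1 to 93.8 (median 70.5) in BW, without overlap (0.92 ± 0.24 SE, adjusted p = 0.00538). GPR17, a receptor of committed precursors, differed by 1.49 ± 0.33, VCAN, a matrix proteoglycan, by 1.58 ± 0.36, and PDGFRA, the growth factor receptor that marks precursors, by 1.18 ± 0.35 (SE; adjusted p = 0.00218, 0.00249 and 0.0121). PDGFRA no longer passed once the length trend was removed (adjusted p = 0.109), which left 3. All 6 markers were higher in LL in young brains, where replicates 1 to 4 again had the highest sums of young LL.

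**Figure D3:**
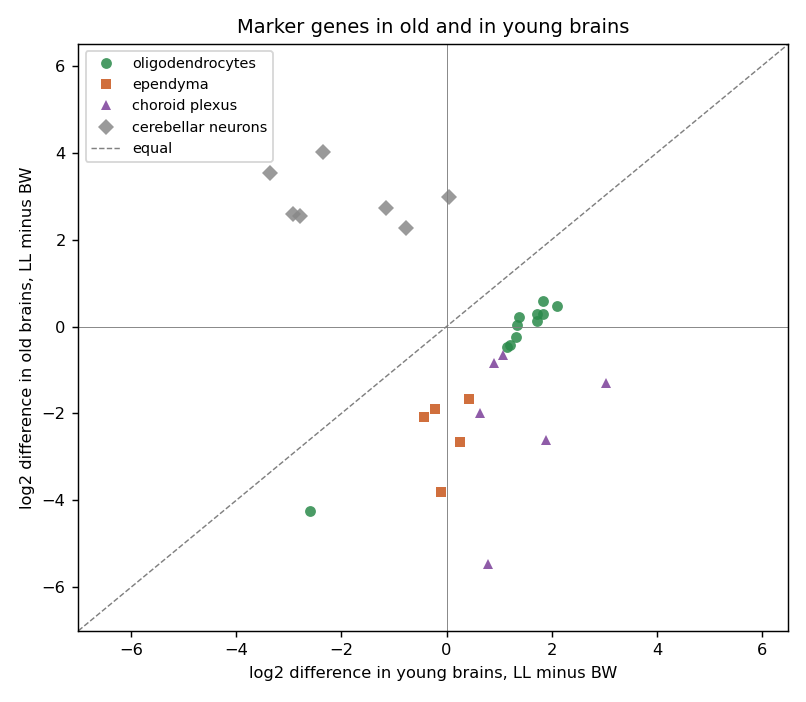
Each point is a marker gene, with its log2 difference between LL and BW in young brains on the horizontal axis and in old brains on the vertical axis, and the dashed line marks equal differences. Oligodendrocyte, ependymal and choroid plexus genes lie below the line, and the 7 cerebellar genes lie above it, at 2.28 to 4.02 in old and −3.36 to 0.04 in young brains.

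Astrocyte markers were higher in old LL for 5 of 10 genes, against 37.9% of all genes, and higher in BW for none. AQP4, the water channel of astrocyte endfeet, ranged from 84.5 to 482 (median 227) in LL and from 12.7 to 79.9 (median 33.0) in BW. The groups did not overlap, and the log2 difference was 2.73 ± 0.54 (SE, adjusted p = 0.00104). The glutamate transporters SLC1A2 and SLC1A3 were higher in LL by 1.65 ± 0.23 and 1.48 ± 0.29 (SE; adjusted p = 8.25e-05 and 0.000834), the gap junction gene GJA1 by 0.76 ± 0.25 (adjusted p = 0.019), and SOX9, a glial transcription factor, by 0.76 ± 0.17 (adjusted p = 0.00209). The LL model of SLC1A2 was 12607 bases against 1730 bases in BW. Removal of the length trend gave 6 higher in LL. AQP4 and SLC1A3 were highest of old LL in replicates 4 and 6, at 482 and 430 and at 1001 and 1022. SLC1A2 was lowest in these 2 animals, at 268 and 569 against 674 to 873 in the other LL animals. Summed astrocyte markers were 8828 and 8208 in replicates 4 and 6, against 4796 to 7255 in the other LL animals and 3957 to 5852 in BW. These 2 animals also stood apart in cerebellar markers, as did young BW replicate 3, which had the highest summed astrocyte level of young BW, 10040. Without replicates 4 and 6, an alternative chosen after the data had been seen, 4 markers were higher in LL. AQP4 then differed by 2.07 and SLC1A3 by 1.07 (adjusted p = 0.00484 and 0.00336). SLC1A2 differed by 1.88 (adjusted p = 1.38e-06), and GJA1 no longer passed (0.65, adjusted p = 0.0701). GFAP, the intermediate filament of reactive astrocytes, lay between 184 and 2140 (median 471) in LL and between 359 and 567 (median 451) in BW, and its difference of 0.52 ± 0.50 (SE) did not pass (adjusted p = 0.401).

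Microglial markers moved in both directions. AIF1, an actin-binding protein used to stain microglia, was lower in LL at 10.5 to 62.2 (median 24.6) against 60.2 to 85.7 (median 75.5) in BW, with a log2 difference of −1.42 ± 0.34 (SE, adjusted p = 0.00382). CX3CR1, the fractalkine receptor, was higher in LL by 1.19 ± 0.30 (SE, adjusted p = 0.00501), and TMEM119 by 0.98 ± 0.30 (adjusted p = 0.0132), the latter losing its call under TMM scaling (adjusted p = 0.0555). TREM2, the lipid receptor of microglia linked to Alzheimer's disease risk, was listed at 0 in all 6 old LL libraries and at 8.65 to 17.8 in old BW, which is at least 13.7-fold higher in BW when 3 counts in each LL library are taken as the floor. Of 11 tested, 2 (18.2%) were higher in LL and 3 (27.3%) in BW, against 37.9% and 16.2% of all genes. The counts were the same with the length trend removed. Without old LL replicate 1, whose summed microglial level of 1789 was the highest of the 12 animals, 5 were higher in BW. The summed level was 348 to 1789 in LL and 749 to 879 in BW.

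Summed general neuronal markers were 14155 to 14834 in 5 old LL animals and 10809 in old LL replicate 3, against 10899 to 11766 in old BW. The medians were 14559 and 11563, and replicate 3 was the one LL animal that did not exceed every BW animal. Of 11 markers 5 (45.5%) were higher in LL and 2 (18.2%) in BW, near the 37.9% and 16.2% of all genes. The counts were 4 and 1 with the length trend removed and 3 and 2 under TMM scaling. SYT1, the calcium sensor of vesicle release, differed by 1.37 ± 0.24 (SE, adjusted p = 0.000413), MAP2, a dendritic microtubule protein, by 1.30 ± 0.33 (adjusted p = 0.00536), and ENO2, neuronal enolase, by 0.72 ± 0.10 (adjusted p = 7.27e-05), while the vesicle genes SNAP25 and SYP differed by 0.52 and 0.45. STMN2, a microtubule regulator of growing axons, was higher in BW by 0.56 on the log2 scale in this fit (−0.56 ± 0.19 SE, adjusted p = 0.0253), as was THY1, a surface glycoprotein (−0.40, adjusted p = 0.0359). With the length trend removed MAP2 and STMN2 did not pass (0.61 and −0.43, adjusted p = 0.0694 and 0.0768). Without division by length MAP2 also fell short (0.68, adjusted p = 0.0759), and STMN2 had the opposite sign (0.27, adjusted p = 0.207). The BW model of STMN2 was 540 bases against 2225 bases in LL. No marker of glutamatergic, GABAergic or striatal neurons passed the test, of 7, 8 and 8 tested.

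Regional content varied among the animals of a group. Summed cerebellar markers reached 5840 and 3751 in old LL replicates 4 and 6, against 83.2 to 119 in the other 4 LL animals and 33.4 to 866 in old BW. The median difference of the 7 tested cerebellar genes was 2.73, yet only ZIC2, a transcription factor of granule cells, passed (2.98 ± 0.86 SE, adjusted p = 0.0109). Leaving out old BW replicate 2, the BW animal with the highest sum, made 6 of them pass, and leaving out old LL replicate 2 made 3 pass. Without old LL replicates 4 and 6, 0 were higher in LL and 2 in BW, and ZIC2 stood at 0.61 (adjusted p = 0.281). Of 2 tested pituitary genes, PRL, prolactin, which like ZIC2 also passed with the length trend removed, was 6.27 to 206 (median 20.7) in LL and 0 to 3.57 (median 0.24) in BW, without overlap (adjusted p = 0.000641). Vascular markers were higher in LL for 3 of 8 endothelial genes (37.5%) and 3 of 7 mural genes (42.9%), near the 37.9% of all genes. The endothelial genes were CDH5, FLT1 and ERG at 1.44, 1.24 and 0.69 (5 genes without old LL replicate 2). The mural genes were ABCC9, PDGFRB and RGS5 at 1.07, 1.04 and 0.81, while VTN was higher in BW (−0.40). Of these 7 genes, CDH5 alone did not overlap between the groups, and ERG, ABCC9 and PDGFRB did not pass after removal of the length trend (adjusted p = 0.158, 0.206 and 0.119), which left 2 endothelial genes and 1 mural gene higher in LL and 2 mural genes higher in BW. The VTN call was lost in many fits with a library left out (adjusted p from 0.0562 to 0.0856). It was also lost with old BW replicates 3 and 4 summed (0.059) and without old LL replicates 4 and 6 (0.167). Among 6 meningeal genes, LUM and COL1A2 passed at adjusted p of 0.0495 and 0.029, with LUM from 1.58 to 242 in LL, and neither passed after removal of the length trend (adjusted p = 0.0555 and 0.166). Without old LL replicates 4 and 6 LUM had the opposite sign (−0.53, adjusted p = 0.648). The 1 tested blood cell gene did not pass.

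The genes of the synaptic vesicle cycle, which load, dock, fuse and retrieve transmitter vesicles, formed the list with the largest share called higher in LL among the 15 pathway lists. Of 39 genes, 27 were higher in LL, against 37.9% of all genes, and 3 were higher in BW, with a median log2 difference of 0.90 against 0.29 over all genes. After removal of the length trend 23 were higher in LL and 3 in BW, with a median of 0.60 against 0.05, and TMM scaling gave 19 and 3. BSN, which encodes the active zone scaffold bassoon, ranged from 63.7 to 136 (median 116) in LL and from 11.6 to 24.3 (median 17.2) in BW. The groups did not overlap, and the difference was 2.60 ± 0.22 (SE, adjusted p = 1.57e-06), or 1.72 with the length trend removed. SYT2, a fast calcium sensor, was 19.6 to 342 in LL and 3.31 to 40.4 in BW (3.09 ± 0.80 SE, adjusted p = 0.00564), with overlap. Its highest values, 342 and 276, were in old LL replicates 4 and 6, the animals with high cerebellar markers, and the other 4 LL animals were at 19.6 to 54.3. Without those animals SYT2 differed by 1.32 and did not pass (adjusted p = 0.0545), while 25 genes of the list were higher in LL and 3 in BW. In the other direction, RAB3B, a vesicle GTPase, was 10.1 to 52.7 (median 39.3) in LL and 119 to 233 (median 167) in BW, and CPLX3, a complexin, was 3.19 to 26.7 (median 15.2) in LL and 30.8 to 99.6 (median 71.4) in BW. Both were without overlap, at −2.14 ± 0.32 and −2.11 ± 0.47 (SE; adjusted p = 0.00014 and 0.00224), and RAB3A, the main vesicle GTPase, was the third on this side (−0.42). The count in young brains was 14 higher in LL and 2 in BW. Of the 39 genes, 8 had an unadjusted interaction p below 0.05, near the 15.8% of all genes.

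Cholesterol in the brain is made locally, and 11 of 21 genes (52.4%) of cholesterol synthesis and its control were higher in old LL, against 37.9% of all genes. In BW 1 was higher (4.76%, against 16.2%), the isomerase EBP (−0.99), and the median over the list was 0.63. INSIG1, the sterol-dependent brake on synthesis, ranged from 110.4 to 165 (median 135) in LL and from 22.8 to 41.2 (median 32.0) in BW, without overlap (2.05 ± 0.15 SE, adjusted p = 4.17e-07). The desaturase SC5D differed by 1.5 ± 0.26 (SE, adjusted p = 0.000404), also without overlap. The count was 9 higher in LL and 2 in BW after removal of the length trend, 8 and 1 under TMM scaling, and 16 and 1 in young brains.

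Immediate early genes, which neurons and other cells switch on within minutes of activity, lay on the BW side. Of 21 tested, 9 were higher in BW, against 16.2% of all genes, and 0 in LL (edgeR; 10 and 0 with DESeq2). BDNF, the activity-regulated neurotrophin, ranged from 2.36 to 7.41 (median 4.68) in LL and from 30.6 to 65.5 (median 40.0) in BW, without overlap (−3.27 ± 0.29 SE, adjusted p = 2.31e-06). Its LL model was 10040 bases and its BW model 771 bases. ARC, a synaptic scaffold gene, was 17.6 to 106 (median 27.1) in LL and 20.7 to 299 (median 154) in BW, with overlap (−2.06 ± 0.59 SE, adjusted p = 0.01). EGR2 was lower in LL by −1.69 ± 0.64 (SE, adjusted p = 0.0375), a call that was lost with old BW replicates 3 and 4 summed (adjusted p = 0.0688). The EGR2 call was also lost in many fits with a library left out (0.0542 to 0.0805), and without old LL replicates 4 and 6 (0.0544). HOMER1, a postsynaptic scaffold, was listed at 0 in all 6 old LL libraries and at 19.4 to 74.2 in BW, at least 48.7-fold higher. Removal of the length trend gave 11 higher in BW and TMM scaling 13, the summed replicates 3 and 4 gave 7, and leaving out 1 library gave 7 to 12. ARC was highest in that pair, at 299 and 285. Young brains gave 2 higher in BW. None of the 21 had an unadjusted interaction p below 0.05. The handling of the animals before brain collection was not described, and its part in these genes was not tested.

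Neuropeptides were also higher in BW where they differed, with 6 of 25 (24%) in edgeR, against 16.2% of all genes, and 0 in LL. The counts were 6 and 1 with DESeq2, 5 and 1 with the length trend removed, and 9 and 0 under TMM scaling. The 3 hypothalamic hormone genes PMCH, AVP and OXT, for melanin-concentrating hormone, vasopressin and oxytocin, varied over orders of magnitude between animals. PMCH ranged from 0.35 to 124 (median 1.64) in LL and from 7.43 to 1047 (median 297) in BW, with overlap (−4.12 ± 1.44 SE, adjusted p = 0.0278). AVP differed by −3.94 ± 1.15 and OXT by −2.93 ± 1.03 (SE; adjusted p = 0.0111 and 0.0286), both with overlap. PNOC, the nociceptin precursor, was 11.9 to 35.8 (median 15.9) in LL and 37.6 to 65.3 (median 46.3) in BW, and of these 4 genes it alone did not overlap (−1.37 ± 0.26 SE, adjusted p = 0.000695). Leaving out old BW replicate 2 or old LL replicate 1, 5 or 6 ended the PMCH call (adjusted p from 0.0505 to 0.0587), and leaving out old BW replicate 6 or old LL replicate 1, 4 or 5 ended the OXT call (0.0503 to 0.0936). Leaving out old LL replicate 3 gave 9 higher in BW, and leaving out old BW replicate 2 or 6 gave 4. Of 35 monoamine and acetylcholine genes, CHRM2, a muscarinic receptor, and HTR2A, a serotonin receptor, were higher in LL (2.18 ± 0.27 and 1.98 ± 0.56 SE, adjusted p = 3.12e-05 and 0.00917). SLC18A2, the vesicular monoamine transporter, was higher in BW (−1.69 ± 0.50 SE, adjusted p = 0.0126). Of the list, 2 genes (5.71%) were called in each direction, against 37.9% of all genes in LL and 16.2% in BW. The counts were 2 in LL and 5 in BW with the length trend removed, and 5 in LL and 2 in BW without old LL replicates 4 and 6. SLC18A2 had fractional counts, the mark of reads shared with other loci, in 7 of the 12 libraries.

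**Figure D4:**
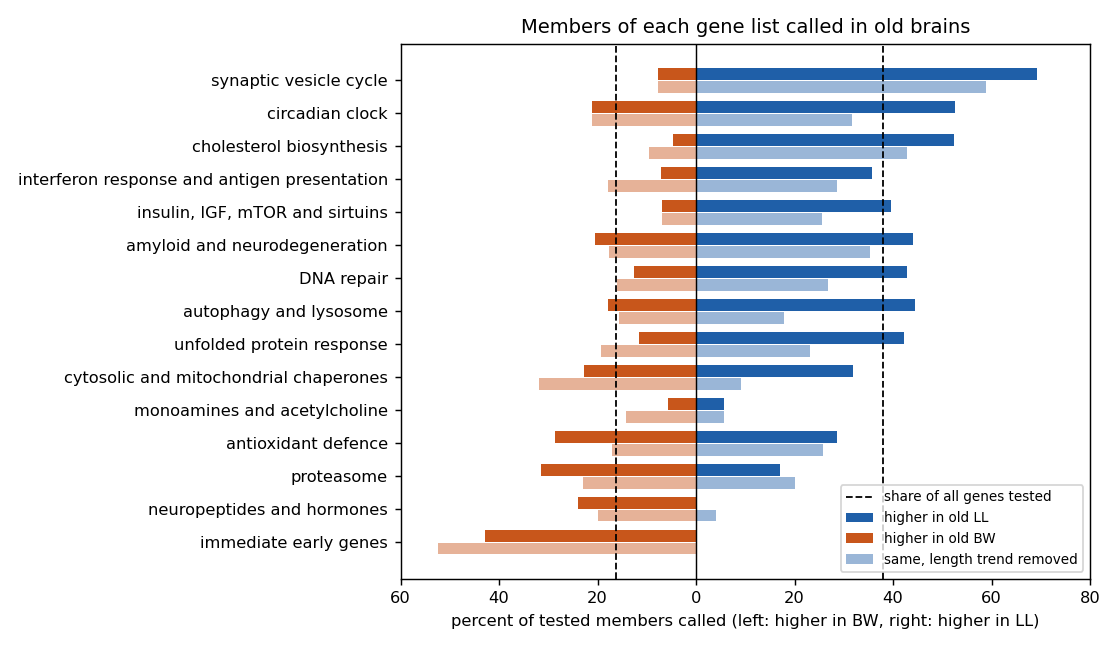
Bars give the percent of tested members of each pathway list that were called higher in old LL, to the right, or higher in old BW, to the left, with paler bars for the fit after removal of the length trend and dashed lines at the shares over all genes tested, 37.9% and 16.2%. The dashed lines do not apply to the paler bars, for which the shares over all genes were 23.9% and 20.9%. Synaptic vesicle genes reached 69.2% on the LL side and immediate early genes 42.9% on the BW side.

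Genes of insulin, IGF and mTOR signalling and the sirtuins, a pathway tied to lifespan in many animals, were higher in LL for 17 of 43 and in BW for 3, namely SIRT3 (−1.19), SIRT5 (−0.63) and RHEB (−0.60). That share, 39.5%, was near the 37.9% of all genes, and after removal of the length trend 11 were higher in LL and 3 in BW and the median went from 0.47 to 0.05. TMM scaling gave 14 and 5. Differences shown to exceed 2-fold numbered 7, all higher in LL, against 4.71% of all genes. FOXO3, a transcription factor restrained by insulin signalling, ranged from 52.2 to 146 (median 68.9) in LL and from 8.47 to 24.4 (median 12.4) in BW, without overlap (2.66 ± 0.32 SE, adjusted p = 2.8e-05), and was 2.08 with the length trend removed. INSR, the insulin receptor, was 13.7 to 24.2 (median 17.3) in LL and 2.38 to 5.13 (median 3.46) in BW (2.32 ± 0.24 SE, adjusted p = 7.08e-06). RICTOR, a subunit of mTOR complex 2, differed by 2.32 ± 0.32 and IGFBP5, an IGF-binding protein, by 1.96 ± 0.32 (SE; adjusted p = 6.78e-05 and 0.000253). All 4 genes had non-overlapping groups and models of 6067 bases or more in LL.

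Genes of amyloid processing and neurodegeneration were higher in LL for 15 of 34 (44.1%) and in BW for 7 (20.6%), near the 37.9% and 16.2% of all genes. The counts were 12 and 6 after removal of the length trend, where 23.9% and 20.9% of all genes were called. Under TMM scaling they were 13 and 10. APP, the amyloid precursor, ranged from 1595 to 2025 (median 1654) in LL and from 1011 to 1301 (median 1205) in BW, without overlap, at 0.56 ± 0.10 (SE, adjusted p = 0.000489). With the length trend removed the difference was 0.15 (adjusted p = 0.221), and without division by length it was −0.13 (adjusted p = 0.27). MAPT, which encodes tau, was 298 to 356 (median 328) in LL and 106 to 138 (median 132) in BW (1.36 ± 0.09 SE, adjusted p = 1.38e-07), and remained past the threshold with the trend removed (0.88, adjusted p = 1.28e-05). Among the secretases and their regulators, SORL1, a sorting receptor for the amyloid precursor, was higher in LL by 2.67 ± 0.34, and BACE2, a homolog of beta-secretase, was higher in BW (−1.66 ± 0.17 SE, adjusted p = 7.97e-06). HTT, huntingtin, was higher in LL by 1.62 ± 0.18 (adjusted p = 1.32e-05). APOE, the main lipid carrier of the brain, overlapped at 5976 to 10321 and 6693 to 9256, with a log2 difference of −0.08 ± 0.15 (SE, adjusted p = 0.693). THBS4, an astrocyte-secreted thrombospondin, and LHPP, a phosphatase, differed by 0.43 ± 0.42 and 0.39 ± 0.13 (SE; adjusted p = 0.399 and 0.024), and the LHPP call was lost under TMM scaling (0.15, adjusted p = 0.457).

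Protein quality control moved in both directions. Of 35 proteasome genes 11 (31.4%) were higher in BW and 6 (17.1%) in LL, against 16.2% and 37.9% of all genes. The counts were 8 and 7 with the length trend removed. Under TMM scaling they were 19 and 4, where 23.9% of all genes were higher in BW. PSMD7, a lid subunit, was 228 to 316 (median 258) in LL and 346 to 438 (median 386) in BW without overlap (−0.57 ± 0.11 SE, adjusted p = 0.000633), and PSME1, an activator subunit, also lay on the BW side (−0.73 ± 0.17 SE, adjusted p = 0.00333). PSME4, another activator, was higher in LL by 1.24 ± 0.21 (adjusted p = 0.000395), and the ATPase PSMC4 by 0.92 ± 0.11 (adjusted p = 3.45e-05), the latter at −0.11 without division by length. Among 22 chaperones, 7 (31.8%) were higher in LL and 5 (22.7%) in BW, against 37.9% and 16.2% of all genes. CRYAB, a small heat shock protein of glia, was lower in LL at 117 to 279 (median 183) against 354 to 542 (median 385), without overlap (−1.13 ± 0.21 SE, adjusted p = 0.000632). STUB1, a chaperone-linked ubiquitin ligase, and HSPA8, the constitutive Hsp70, were also higher in BW (−0.96 and −0.71), as were HSPB8 (−0.64) and HSPA14 (−0.60), HSPA8 with fractional counts in 6 of 12 libraries, and HSPA13 was higher in LL (1.10). Removal of the length trend left 2 chaperones higher in LL and 7 in BW, and TMM scaling 3 and 8.

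Autophagy and lysosome genes were higher in LL for 20 of 45 (44.4%) and in BW for 8 (17.8%), near the 37.9% and 16.2% of all genes. With the length trend removed the counts were 8 and 7, where 23.9% and 20.9% of all genes were called. TMM scaling turned the balance, to 10 in LL and 14 in BW, where 26.8% and 23.9% of all genes were called. The short ubiquitin-like genes that coat autophagosomes, GABARAP and MAP1LC3A, were higher in BW without overlap, at 407 to 533 (median 464) against 1129 to 1321 (median 1228) and at 392 to 625 (median 481) against 949 to 1319 (median 1166). Their log2 differences were −1.37 ± 0.09 and −1.24 ± 0.13 (SE; adjusted p = 1.27e-07 and 9.81e-06). ATG2B, a lipid transfer protein, and ATP6V1A, a proton pump subunit, were higher in LL (1.38 ± 0.19 and 1.19 ± 0.20 SE, adjusted p = 7.28e-05 and 0.000366). In the unfolded protein response 11 of 26 (42.3%) were higher in LL and 3 (11.5%) in BW, near the 37.9% and 16.2% of all genes. The counts were 6 and 5 with the trend removed, where 23.9% and 20.9% of all genes were called. They were 7 and 9 under TMM scaling, where 26.8% and 23.9% of all genes were called. The stress sensor ERN1 (2.44 ± 0.47), the degradation factor SEL1L (2.17 ± 0.29) and the phosphatase subunit PPP1R15B (1.05 ± 0.22) were higher in LL. EDEM1, a mannosidase-like degradation factor, was listed at 0 in old LL and at 5.70 to 10.3 in BW, at least 21.6-fold higher, and the folding factors PDIA3 (−0.49) and MANF (−0.45) were also higher in BW.

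DNA repair genes were higher in LL for 24 of 56 (42.9%) and in BW for 7 (12.5%), near the 37.9% and 16.2% of all genes. Beyond 2-fold were 6 and 3, where 4.71% and 2.84% of all genes were called. With the length trend removed the counts were 15 and 9, where 23.9% and 20.9% of all genes were called, and the median was 0.009. TMM scaling gave 16 and 8, where 26.8% and 23.9% of all genes were called. ERCC4, a nuclease subunit of excision repair, ranged from 17.4 to 28.2 (median 21.9) in LL and from 3.01 to 6.93 (median 4.80) in BW, without overlap (2.17 ± 0.22 SE, adjusted p = 7.22e-06). PRKDC, the kinase of end joining, and PARP3 were higher in LL by 1.94 ± 0.37 and 1.81 ± 0.19, and NEIL2, a base excision glycosylase, was higher in BW (−2.10 ± 0.33 SE, adjusted p = 0.000194). Antioxidant genes were called for 10 of 35 (28.6%) in each direction, against 37.9% of all genes in LL and 16.2% in BW. The counts were 9 in LL and 6 in BW with the length trend removed, and 6 and 13 under TMM scaling. NQO2, a quinone reductase, and TXNIP, a thioredoxin inhibitor, were higher in LL (1.42 and 0.94), while GPX3, a secreted peroxidase, and SLC7A11, the cystine transporter, were higher in BW (−1.05 and −1.09). In the circadian clock 10 of 19 (52.6%) were higher in LL and 4 (21.1%) in BW, against 37.9% and 16.2% of all genes. The median was 0.66. After removal of the length trend the counts were 6 and 4 and the median was 0.27. CLOCK, NR1D2 and CSNK1D differed by 2.22 ± 0.30, 1.40 ± 0.32 and 1.29 ± 0.12. BHLHE40, a transcriptional repressor of the clock, was 0.22 to 1.20 (median 1.08) in LL and 59.8 to 97.3 (median 93.6) in BW (−6.65 ± 0.28 SE, adjusted p = 1.97e-09). The low LL level of BHLHE40 is uncertain, since reads that the counting did not assign to a gene also lower its level. Whether its reads were assigned alike in both species was not tested. DBP (−1.21), NFIL3 (−0.63) and CIART (−0.62) were on the same side. The time of day of collection was not given in the sources used here.

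Interferon response and antigen presentation genes were higher in LL for 10 of 28 (35.7%) and in BW for 2 (7.14%), against 37.9% and 16.2% of all genes. Those higher in BW were the receptor genes IFNGR1 (−0.77) and IFNAR2 (−0.42). The counts were 8 and 5 with the length trend removed and 8 and 4 under TMM scaling. SAMHD1, a nucleotide hydrolase that limits viruses, ranged from 7.29 to 25.5 (median 11.4) in LL and from 1.73 to 4.36 (median 3.17) in BW, without overlap (2.13 ± 0.35 SE, adjusted p = 0.000287). CIITA, the master regulator of class II presentation, was low in both and also did not overlap (2.67 ± 0.47 SE, adjusted p = 0.000434). RSAD2 and USP18, which interferon induces, were highest in old LL replicate 1, at 18.1 and 60.4 against group medians of 2.09 and 7.08, and both kept their call without it. Without that animal 9 genes of the list were higher in LL and 5 in BW, and without old LL replicates 4 and 6 the numbers were 14 and 4.

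Genes with similar model lengths in both tables were ranked on their own, since length division changes them least. Similar length does not show that reads were assigned alike in both species, and read assignment was not tested for these genes. Of the 851 genes beyond 2-fold, 214 had lengths within 1.5-fold, and 110 of these also had at least 10 counts on average in each species, few fractional counts, a level of at least 5 in the higher species and groups apart. Of the 110, 68 were higher in LL and 42 in BW. MAP3K15, a stress-activated kinase, was lowest in LL relative to BW, at 0.33 to 1.0 (median 0.64) against 50.7 to 74.3 (median 59.5), or −6.63 ± 0.23 on the log2 scale (SE, adjusted p = 3.01e-10). It lies on BW chromosome X from 104602479 to 104733742 in HU_Pman_2.1. CCT3, a subunit of the cytosolic chaperonin on chromosome 6 from 66165997 to 66183707, was 1.46 to 4.62 (median 3.19) in LL and 247 to 287 (median 283) in BW. RTF1, a transcription elongation factor, was 9.27 to 14 (median 13.3) against 110 to 151 (median 132), and HSD17B10, a mitochondrial dehydrogenase, 13.9 to 21.9 (median 19.6) against 116 to 155 (median 139). SLC8A1, the sodium-calcium exchanger, differed by −2.99 ± 0.20, ESD, an esterase, by −3.30 ± 0.73, and BTBD17, MYOM2 and FBXO46 by −4.16, −3.05 and −2.81. With MAG these were the 10 largest differences on the BW side, and all 10 were also higher in BW in young brains. Within old LL, ESD was 0.14 and 0 in replicates 4 and 5 and 13.1 to 25.0 in the other animals.

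On the LL side the largest difference was GSTM3, a glutathione transferase, at 203 to 320 (median 230) against 3.30 to 23.7 (median 5.76), or 4.81 ± 0.42 (SE, adjusted p = 2.02e-06). It lies on BW chromosome 6 from 83926627 to 83931830, within a family of closely similar genes, and had fractional counts in 5 of the 12 libraries. MYBPC3, a myosin-binding protein known from heart muscle, was 24.6 to 79.8 (median 35.3) against 1.08 to 3.26 (median 2.32), and COMP, a cartilage matrix protein, 4.68 to 19.1 (median 6.69) against 0.26 to 2.03 (median 0.92). CENPH, a kinetochore protein, differed by 2.87 ± 0.31, IL17RA, an interleukin receptor, by 2.73 ± 0.34, THAP12 by 2.72 ± 0.27, NWD1 by 2.77 ± 0.34, KIF20A, a kinesin of cell division, by 2.68 ± 0.24, and XYLB, a sugar kinase, by 2.59 ± 0.35. BSN, described above, completed the 10. In young brains 9 of the 10 were higher in LL at an adjusted p below 0.05, and COMP was not (1.37, adjusted p = 0.0613). All 20 genes kept their call after removal of the length trend.

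**Figure D5:**
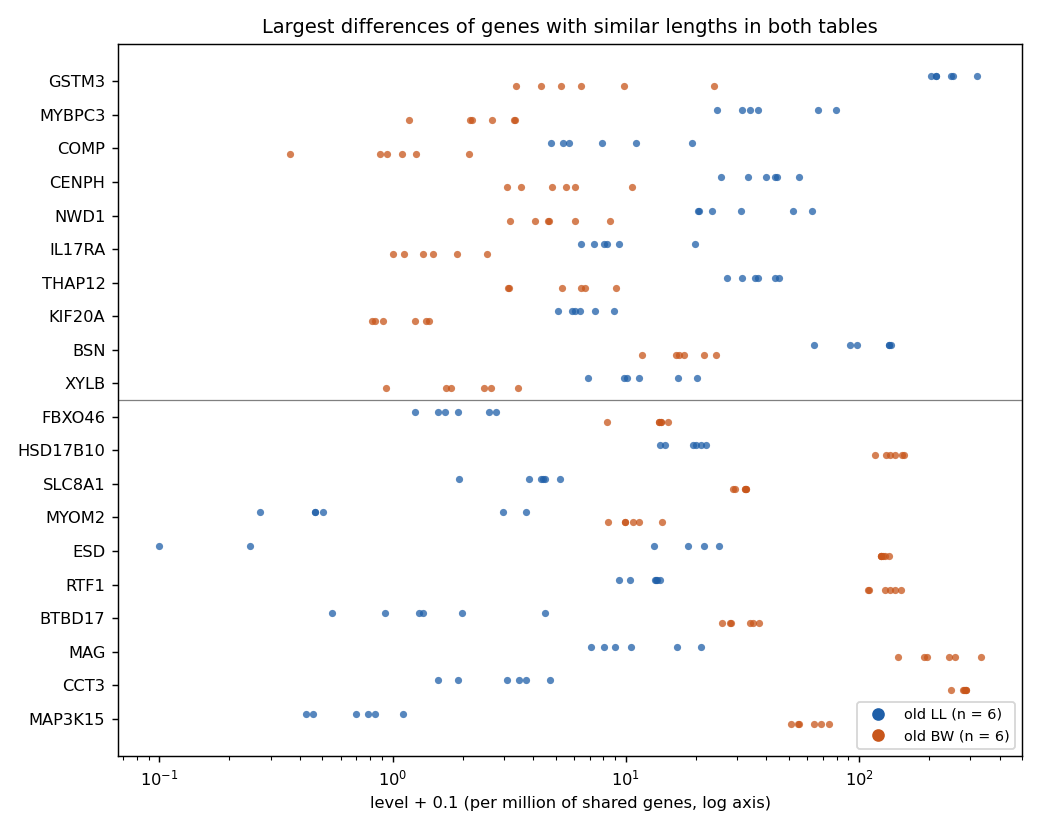
Each point is the level of a gene in 1 animal, with 0.1 added, on a log axis, for the 10 genes with the largest difference in each direction among those with similar lengths in both tables. The 20 genes were chosen among those whose groups did not overlap, so the gap between LL and BW points follows from the choice. ESD spans 0 to 25.0 within old LL.

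Some symbols had no reads in one species. With no count in any of the 6 old BW libraries and over 10 counts on average in LL there were 5 genes, and the reverse held for 12. RPL38, a ribosomal protein that all cells need, was listed at 0 in old LL and at 1659 to 2165 in BW, SNX19 at 0 and 32.7 to 49.7, and PUDP, a pseudouridine phosphatase, at 21.7 to 32.9 in LL and 0 in BW. Against a floor of 3 counts per library these were at least 1030-fold, 106-fold and 34.1-fold apart. TLDC2 and CLDN14 had counts in some old LL libraries only. All of these, and TREM2, EDEM1 and HOMER1, are uncertain as measures of the gene in the animal, since a gene that the counting did not assign also appears as 0.

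Most genes with a large difference between old brains differed in the same direction between young brains, which are other animals counted with the same 2 gene tables, though fewer did so beyond 2-fold. Of the 531 genes higher in LL beyond 2-fold, 520 were tested in young brains and 470 of these (90.4%) were higher in LL there, against 28.0% of all genes tested in young. Of the 320 higher in BW, 305 were tested and 266 (87.2%) were higher in BW, against 15.4%. The difference was shown to exceed 2-fold in young brains as well for 196 of the 520 and 186 of the 305, against 2.47% and 2.22% of all genes. No gene of either set was called in the opposite direction in young brains. The interaction test over 24 libraries called 0 of 11659 genes at an adjusted p below 0.05 in edgeR, while 1847 (15.8%) had an unadjusted p below 0.05 and DESeq2 called 53. Of the genes beyond 2-fold in old brains, 169 of the 531 and 66 of the 320 had an unadjusted interaction p below 0.05, in a test that shares the old libraries with the choice of these genes.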

How the data were processed

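Brain RNA of 24 animals in 4 groups of 6 was sequenced from directional libraries; the old groups were compared here. Per the labels and the file headers, the authors trimmed reads with Trim Galore 0.4.5, aligned them with STAR 2.7.2b and counted them per gene with featureCounts 1.5.3 against Ensembl 101 models, of Pero_0.1 for LL and HU_Pman_2.1 for BW. The deposited values are estimated counts, some fractional, with a Length column, and were rounded to whole numbers. A row without a gene name held 12.7% to 14.6% of the old BW counts and was left out. No column of per-sample values was unused (0).

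edgeR 4.0.16 (R 4.3.3) was fitted with offsets of gene length and the total over shared genes, filterByExpr (minimum count 10), the quasi-likelihood test, a test against 2-fold, and Benjamini-Hochberg adjustment over all genes tested at 0.05. SE is the log2 difference divided by the root of F. Alternatives used TMM, RLE, other filters, thinning to 5277943 counts, no length division, nearly equal lengths (shorter at least 0.8 times the longer), summed near-identical libraries, libraries left out, DESeq2 1.42.0 and limma 3.58.1 (pseudocount 1). Removal of each library's lowess trend on gene length (span 0.3), and leaving out old LL replicates 4 and 6 together, were added after seeing the data. The fits were tested on simulated data.

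Members and gene lists were chosen with earlier results of these data known. Named genes were the 10 largest in each direction among genes beyond 2-fold with lengths within 1.5-fold, 1 chromosome or scaffold, fractional counts in at most 5 old libraries, means of at least 10 counts and a level of 5, and groups apart; up to 4 called members of each list; 8 genes of interest to the study or to neurodegeneration; and up to 3 genes without counts in 1 species. Further members were named to complete counts of 5 or fewer, or to fill a list, after their values had been seen. Some members are not reported here. Each library is a separate animal per the labels, and p-values measure the spread between these libraries. Old BW replicates 3 and 4, which were close to identical, count as 2 animals there, so the spread within old BW may be understated.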

Additional observations from a re-analysis of the deposited data

Results flagged for a closer look

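Among the old libraries, 90 sets of 6 values were tested for an animal that stood apart from the other 5 of its group, and 13 were picked out, where chance gives about 1 in 20. Old LL replicate 3 was apart in 4 of them: MBP at 4482, summed oligodendrocyte markers at 8881, summed precursor markers at 348 and summed neuronal markers at 10809, the first 3 highest and the last lowest of its group. Old LL replicate 1 was highest in GFAP at 2140, in summed microglial markers at 1789 and in IL17RA at 19.7. Old BW replicate 2 was highest in summed cerebellar markers at 866.3 and in summed GABAergic markers at 2513. Single genes were apart in other animals: CCT3 was lowest in old BW replicate 5 at 247, BTBD17 highest in old LL replicate 4 at 4.42, FBXO46 lowest in old BW replicate 1 at 8.21 and GSTM3 highest in old BW replicate 6 at 23.7.

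Reads outside the comparison were not few. The row of genes without a name held a median of 13.9% of the old BW counts, and genes without a match in the BW table held a median of 18.4% of the old LL counts on named genes.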

How the results depend on the processing

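No paired analysis was possible because the labels give the groups no shared replicate numbers and each animal belongs to 1 group. Restricting the test to genes whose shorter model was at least 0.8 times the longer left 1654 genes tested. Of these, 898 were called, 726 higher in LL and 172 in BW, and 111 were beyond 2-fold, 49 and 62. Removing the length trend gave 2692 higher in LL, 247 beyond 2-fold higher in LL and 1 gene (SRSF5) with an interaction. Without division by length 3655 genes were higher in BW and 1504 were beyond 2-fold, 1013 in LL and 491 in BW; STMN2 (0.27), PSMC4 (−0.11) and APP (−0.13) then had the opposite sign. RLE scaling gave 2790 higher in BW. Requiring 10 counts in every library gave 554 beyond 2-fold, 190 of them higher in BW. DESeq2 called 53 interactions. With 1 library left out, old brains gave 5503 to 6189 calls, 714 to 966 beyond 2-fold, and the interaction 0 to 1, the 1 without young BW replicate 3. Beyond the fewer genes tested and the changed length term, the cause was not tested. Over the alternatives, 2838 of 2963 values of named genes kept their direction and side of the threshold, 120 fell short of it, 1 (APOE without division by length, −0.87) newly passed and 4 had the opposite sign, the fourth LUM without old LL replicates 4 and 6 (−0.53), an alternative added after seeing the data. With the length trend removed 11 named genes fell short, and 12 did so when some library was left out, among them COL1A2, EGR2, ERG, LHPP, LUM, MYRF, OXT, PMCH, SLC7A11, STMN2 and VTN, at adjusted p from 0.0503 to 0.156. Depth limits the genes of low level, since BW libraries held fewer counts.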

Other observations

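Several genes with a high level in 1 species were far lower in the other at both ages. They were picked out after their values had been seen. They are uncertain as measures of the gene in the animal, since reads that the counting did not assign to a gene also lower its level. GLUL, the glutamine synthetase of astrocytes, had a mean level of 0.03 in old LL and 992 in old BW, with 1161 and 1122 bases of gene model. FTH1, the ferritin heavy chain, had 16.6 in old LL and 8516 in old BW. ALDOA, a glycolytic aldolase, had 4750 in old LL and 6.33 in old BW, with a model of 1601 bases in LL and 420 bases in BW. In young brains the mean levels were 0 and 1120 for GLUL, 14.7 and 7180 for FTH1, and 4375 and 8.69 for ALDOA.

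The gene with the lowest interaction p was SRSF5, a splicing factor. Its level was 390 ± 21.9 in old LL and 382 ± 39.7 in old BW, and 295 ± 31.0 in young LL and 472 ± 54.1 in young BW (mean ± SD, n = 6 each), with an adjusted p of 0.157 for the interaction (edgeR). TERT, the catalytic subunit of telomerase, had 2.61 ± 0.63 in old LL, 2.58 ± 0.87 in old BW, 1.49 ± 0.25 in young LL and 4.59 ± 1.24 in young BW (mean ± SD), with an adjusted p of 0.227.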
